A study of Mus musculus with 5 samples.

Results

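The comparison of high doxycycline with control after 48 h used 2 of the 5 arrays of the series, chosen by their titles, with the control array subtracted from the high-dose array. The study profiled mouse tumour cells on one-colour expression arrays. The lines were derived from sarcomas that arose after induction of the EWS/ATF1 fusion in mice, and they keep a doxycycline-inducible EWS/ATF1 allele. All 5 arrays carry RNA of such tumour cells whose strain background is mixed, from C57/BL6 with 129 and with ICR. The other 3 arrays were taken at 3 h, from a control, a low-dose and a high-dose culture. The concentrations, whether control cultures had any doxycycline, the age of the mice and the line used for each array are not given in the labels. A difference between 2 arrays can therefore hold a difference between lines or cultures, and it cannot be told apart from one of dose.

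EWS/ATF1 joins the activating part of the RNA-binding protein EWSR1 to the DNA-binding part of ATF1 and is the hallmark of clear cell sarcoma. ATF1 belongs to the CREB family, which binds the cAMP response element and normally switches genes on when kinases phosphorylate it. In the fusion this control is lost, so that cAMP-responsive genes can be on without a signal.

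Levels are log2 signals relative to the array's own 75th percentile, so that 0 is a signal equal to that percentile. Where 5 levels are given, they stand in this order: at 3 h the control, the low and the high dose, then at 48 h the control and the high dose. A difference is the 48 h high-dose level minus the 48 h control level unless another pair is named. Of 20018 named genes, 13739 were above background on both 48 h arrays, and 1362 of these (9.91%) were at least 2-fold higher at high dose and 1386 (10.1%) at least 2-fold lower. Both shares are the yardstick for the counts of gene lists against the 48 h control given below. Differences of at least 16-fold were found for 81 genes on the higher side and 34 on the lower side. A further 304 genes were above background at high dose only with a bound of at least 2-fold, and 414 at control only. The median difference of all measured genes was 0.05. There was 1 array per group, so no difference has a replicate check or a p-value, and the scanner's error model, about 0.20 for most genes, covers technical error within the arrays only. In such bulk samples fewer cells of a type and less RNA per cell cannot be told apart.

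The 2 control arrays gave the background without high dose. Between them 351 of 14017 measured genes (2.5%) were 2-fold higher at 48 h and 191 (1.36%) 2-fold lower. With the 3 h control in place of the 48 h control, 1276 of 13553 genes (9.41%) were 2-fold higher and 1203 (8.88%) 2-fold lower at 48 h of high dose. Of the 1297 genes higher against the 48 h control and also measured against the 3 h control, 998 were 2-fold higher against both, and 958 of 1383 were lower against both. These counts share the 48 h high-dose array. The 75th percentile of signal was 649 on the 48 h control and 420 on the 48 h high-dose array, and 59.9% and 55.5% of probes were above background. The fusion's parent genes did not mark the groups: Ewsr1 differed by 0.48 and Atf1 by -0.33, and the probes are not shown to read the fusion transcript.

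**Figure D1:**
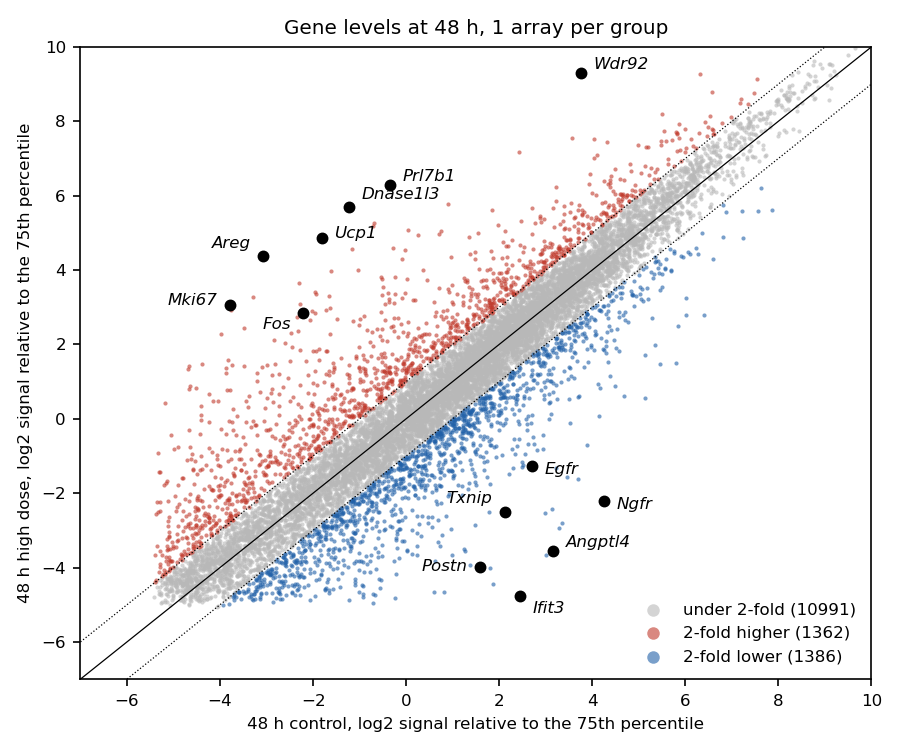
Level of each of the 13739 measured genes on the 48 h control array (x axis) and the 48 h high-dose array (y axis), as log2 signal relative to the 75th percentile, with 1 array per group. Red and blue points are 2-fold higher (1362) and lower (1386), dotted lines mark 2-fold, and Areg, Ucp1 and Wdr92 lie far above the diagonal while Ifit3, Angptl4 and Ngfr lie far below it.

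The highest genes outside the cell cycle belonged to no single class. Areg, which encodes the EGF receptor ligand amphiregulin, had the largest measured difference. Its levels were -2.31, -1.58, 0.28, -3.07 and 4.37, which makes it 174-fold higher at 48 h of high dose (difference 7.44). Both high-dose arrays lay above every other array. Dnase1l3, a secreted nuclease, stood between -1.52 and -1.23 on the other 4 arrays and at 5.70 after 48 h of high dose, a 122-fold difference. Ucp1, the uncoupling protein of brown fat mitochondria, had levels of -2.21, -2.80, -0.33, -1.81 and 4.86, and it was 102-fold higher. Dnase1l3 was thus high on 1 array only, whereas Ucp1 was already raised on the 3 h high-dose array.

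Slco2b1, an organic anion transporter, was 94.4-fold higher, and its other measured probe gave 6.57 against 6.56 on the log2 scale. Prl7b1, a prolactin-family gene, differed by 6.62, but its level was 1.78 on the 3 h control and -0.34 on the 48 h control, so that the difference against the 3 h control was 4.50. Pnoc, the precursor of the neuropeptide nociceptin, differed by 5.96 and by 4.29 in the same 2 comparisons. Mmel1, a membrane metallopeptidase, and Tnfaip8l2, a regulator of immune signalling, differed by 5.60 and 5.86. Wdr92 had levels of 3.19, 3.85, 6.79, 3.75 and 9.30 and was 46.9-fold higher. Wdr92 was ordered by dose at 3 h and was highest on the 48 h high-dose array, but there was no low-dose array at 48 h.

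Genes below background on the control array have only a lower bound. Cyp3a44 was at least 447-fold higher at high dose, with levels of -7.13 (not above background) and 3.36. The Cyp3a genes encode cytochrome P450 enzymes of drug and steroid oxidation, mostly in liver and gut. Of 8 family members on the array, Cyp3a11, Cyp3a16, Cyp3a41b, Cyp3a44 and Cyp3a59 had bounds between 55.6-fold and 447-fold. These genes are near-identical copies whose probes may share targets, so the 5 cannot be counted as 5 separate genes. Cyp3a13, a more distant member, differed by -0.96, and Cyp3a25 had a bound of 1.80-fold. Cyp3a44 was above background on the 3 h high-dose array too, at -4.56, and on none of the other 3 h arrays.

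Fgf15, a hormone-like fibroblast growth factor of the gut, was at least 81.6-fold higher. Gpr63, an orphan receptor, was at least 110-fold higher and was also above background on the 3 h high-dose array, at -4.65. Pbk, a mitotic kinase, was at least 240-fold higher and Pimreg, another gene of dividing cells, at least 166-fold.

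Among EGF-family ligands and ERBB receptors, 3 ligands were higher and the receptor Egfr was lower. The ligands are shed from the cell surface and activate EGFR, which signals through RAS and ERK. Areg, Ereg and Hbegf were 2-fold higher, and Egfr, Lrig3 and Errfi1 were 2-fold lower, out of 15 measured members with a median of -0.16. Ereg, which encodes epiregulin, had levels of -3.86, -1.62, -1.28, -3.59 and -1.07. It differed by 2.51, close to the 2.58 seen at 3 h. Hbegf, heparin-binding EGF, differed by 1.36. Egfr had levels of 2.04, 1.44, 2.03, 2.70 and -1.27, a 15.7-fold lower signal at 48 h of high dose. The Egfr difference at 3 h of high dose was -0.01, so the lower level was seen on the 48 h array alone. Errfi1, an inhibitor that EGFR signalling induces, was lower by 1.07.

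Among ERK output genes, more were higher than lower. They include the phosphatases that switch ERK off again and the PEA3-type ETS factors downstream of it. Of 26 measured, 11 were 2-fold higher, 2 were lower, and the median was 0.75. Dusp2, a nuclear ERK phosphatase, had levels of -0.33, 0.26, 2.16, -0.09 and 4.30 and was 21.0-fold higher. Dusp6, the cytoplasmic one, had levels of 2.09, 3.00, 3.45, 1.82 and 4.51. On both genes the 2 controls were the lowest arrays and the 48 h high-dose array the highest.

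Dusp14 and Dusp4 differed by 2.11 and 2.09. Etv4, a PEA3 factor, differed by 3.42, while Etv1 of the same family differed by -2.81 after having been higher by 1.12 at 3 h. The urokinase receptor gene Plaur and urokinase itself, Plau, were higher by 3.71 and 2.69, and Ier3, an early ERK target, by 2.69. Phlda1, a pleckstrin-homology gene induced by growth factors, was lower by 2.78. Spry4 and Spred1, inhibitors of RAS signalling, were higher by 1.34 and 1.47.

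Fos and Jun went opposite ways, and the other members of the Fos family were not alike. Fos, an AP-1 subunit, had levels of -2.22, -0.50, 2.18, -2.22 and 2.86 and was 33.7-fold higher. Fosl1 was below background on both control arrays and at least 9.16-fold higher at 48 h of high dose. Jun, the usual partner, had levels of 3.53, 4.04, 3.38, 3.07 and 0.66, a difference of -2.41, and Fosl2 differed by -1.50. Of 14 measured AP-1 genes, 3 were 2-fold higher (Fos, Batf3 and Maff) and 2 lower, with a median of 0.10. Among all measured genes, 9.91% were higher and 10.1% lower. The AP-1 list thus had a median near that of all genes with Fos far above it.

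Early response genes are those that growth signals switch on within an hour and that usually fall back soon after. At 48 h, 7 of 20 measured were 2-fold higher and 5 lower, with a median of 0.18. Egr1, a zinc-finger factor, had levels of 0.02, 1.92, 3.44, 0.21 and 2.15. Its difference was 1.94 at 48 h and 3.42 at 3 h. The orphan receptors Nr4a2 and Nr4a1 differed by 1.89 and 1.28, and Nr4a3 was at least 33.3-fold higher, having been below background on both controls. Csrnp1, another nuclear early gene, differed by 2.53. On the lower side were Zfp36l2 and the bound for Zfp36l1, both encoding proteins that destabilise AU-rich messages, with -2.34 and at least 12.4-fold, and Btg1, an antiproliferative gene, with -1.96.

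Known CREB and cAMP target genes were mixed. Of 26 measured, 8 were 2-fold higher and 3 lower, and the median was 0.60, or 0.27 against the 3 h control. Crem, a CREB-family gene that makes both activators and the repressor ICER, had levels of 1.79, 1.75, 2.23, 2.15 and 4.65 and was 5.65-fold higher. The list's higher members included Areg, the neuropeptide precursors Cartpt, Penk and Vgf, the thyroid hormone deiodinase Dio2, the kinase Sik1 and the phosphodiesterase Pde4d. Cartpt differed by 2.21 from the 48 h control but by 0.63 from the 3 h control, and Dio2 by 1.67 and 0.37. Bdnf, a neurotrophin and a classical CREB target in neurons, was lower by 2.94, with levels of 0.68, 1.20, 1.42, 0.65 and -2.29. Rgs2, a G protein regulator, was lower by 1.98 and Icam4, an adhesion molecule, by 1.93.

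The full palindromic cAMP response element, TGACGTCA, was searched in RefSeq promoters of GRCm38.p6, from 250 bases before to 50 after each start. It was held by 588 of 32851 promoters (1.79%). Among genes with a promoter in the table, it was held by 39 of 1064 genes 2-fold higher at 48 h (3.67%), 24 of 1057 lower genes (2.27%) and 377 of 10957 measured genes (3.44%). A match is a description of the letters and not of binding. The promoters below are shown because they belong to genes described above or next and hold the element, which is in capitals. They are printed 5′ to 3′ on the gene's strand and stop at the start site at the latest. Areg lies at chr5:91139488-91139595 on the plus strand, Epha2 at chr4:141301138-141301220 on the plus strand, the second Maff start at chr15:79347441-79347519 on the plus strand and Cartpt at chr13:99900738-99900845 on the minus strand.
Areg: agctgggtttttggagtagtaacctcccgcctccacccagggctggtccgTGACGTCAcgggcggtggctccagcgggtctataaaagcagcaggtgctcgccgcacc
Epha2: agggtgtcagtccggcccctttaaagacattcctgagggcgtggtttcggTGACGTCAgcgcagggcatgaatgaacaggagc
Maff: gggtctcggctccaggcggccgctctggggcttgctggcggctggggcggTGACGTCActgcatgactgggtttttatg
Cartpt: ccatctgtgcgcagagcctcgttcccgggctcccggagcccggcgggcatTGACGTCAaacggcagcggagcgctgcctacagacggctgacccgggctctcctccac

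The element begins 61, 33, 29 and 112 bases before the start in Areg, Epha2, Maff and Cartpt. Of these, Areg, Epha2 and Maff were 2-fold higher at 3 h as well, and Cartpt differed by -0.59 there. Among the 70 genes with a promoter that were higher at both times, 5 held the element.

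**Figure D2:**
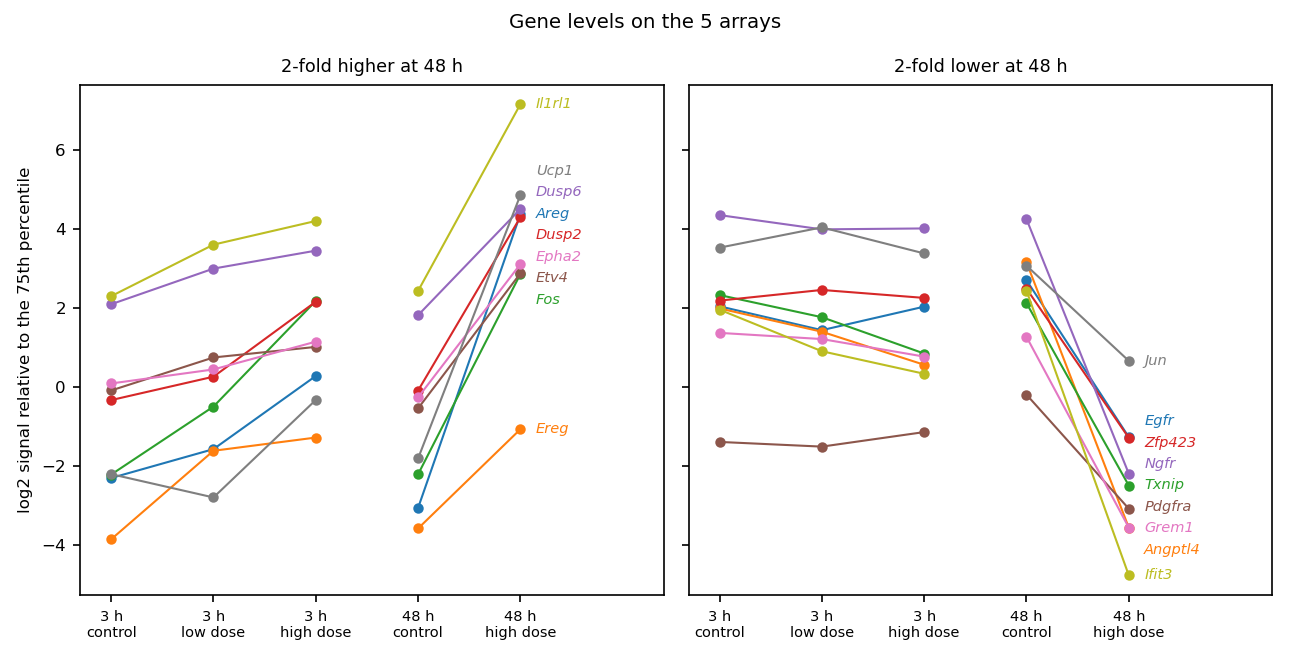
Levels of 9 genes that were 2-fold higher (left) and 9 that were 2-fold lower (right) at 48 h of high dose, on each of the 5 arrays (x axis), as log2 signal relative to the 75th percentile (y axis). Each point is 1 array, and lines join arrays of the same time only to guide the eye. Fos, Dusp2 and Areg were highest on the 48 h and next on the 3 h high-dose array, whereas Egfr, Ngfr and Zfp423 were low on the 48 h high-dose array alone.

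Receptor tyrosine kinases, which bind growth factors at the cell surface, had members on both sides. Of 31 measured, 4 were 2-fold higher and 9 lower, and the median was -0.31, or -0.04 against the 3 h control. With normexp background correction 4 of the 31 were higher and 4 lower. Of all measured genes, 9.91% were 2-fold higher and 10.1% lower without that correction. Epha2, an ephrin receptor, had levels of 0.09, 0.44, 1.15, -0.27 and 3.11 and was 10.4-fold higher. The neurotrophin receptors Ntrk2 and Ntrk3 differed by 1.27 and -1.78. Ngfr, the low-affinity neurotrophin receptor and a neural crest marker, had levels of 4.35, 3.99, 4.02, 4.25 and -2.20. Ngfr was 87.4-fold lower than on the 48 h control, and the other 4 arrays lay close together.

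The PDGF receptors Pdgfra and Pdgfrb, typical of mesenchymal cells, differed by -2.89 and -1.52. Axl, a receptor for GAS6, was lower by 2.51, and its ligand gene Gas6 had levels of 5.80, 5.67, 5.26, 6.03 and 2.78. Mertk, a second GAS6 receptor, was at least 3.28-fold lower. So Gas6 and the receptor genes Axl and Mertk were lower together, Mertk by a bound only. Tek, the angiopoietin receptor, was at least 2.46-fold lower, and its ligand gene Angpt1 at least 22.2-fold lower.

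Growth factor genes were on both sides too, with 4 of 30 measured 2-fold higher and 10 lower at a median of -0.12. The shares of all measured genes were 9.91% higher and 10.1% lower. Fgf1 and Fgf18, fibroblast growth factors, were higher by 3.02 and 2.64. Fgf7 and Fgf10, which mesenchyme makes for epithelia, were lower by 2.52 and 2.29. Vegfd, a lymphangiogenic factor, had levels of 3.01, 2.61, 2.40, 2.51 and -1.25 and was 13.6-fold lower, and Vegfa was lower by 1.81. In the IGF axis, 1 of 13 was higher and 5 lower, or 3 lower with normexp. Igfbp5, which binds IGF in the matrix, was at least 208-fold lower with levels of 2.38, 2.35, 2.06, 2.76 and -4.94, the largest bound on that side. Irs1, the insulin receptor substrate, was lower by 2.33, whereas Irs2 was higher by 1.14. Igf2bp1, which binds the Igf2 message, had a bound on the higher side of 3.32 on the log2 scale.

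Several TGF-β and BMP genes were lower. Of 30 TGF-β genes, 3 were 2-fold higher and 7 lower, with a median of -0.55. Against the 3 h control 6 were higher and 5 lower, with a median of -0.17, and 4 of the 7 lower genes were lower there too. Tgfb2 and Tgfb3, 2 of the ligands, were lower by 2.29 and 2.19, the co-receptor Tgfbr3 by 2.53 and the receptor Tgfbr2 by 1.15. The activin genes Inhbb and Inhba and their antagonist Fst, follistatin, were higher by 2.40, 1.38 and 2.62. Against the 3 h control, Fst differed by 1.39.

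Of 23 measured BMP genes, 1 was 2-fold higher and 8 lower. Grem1, a secreted BMP antagonist, had levels of 1.37, 1.21, 0.77, 1.27 and -3.56, a 28.5-fold lower signal. The ligands Gdf5 and Bmp4 were lower by 2.35 and 2.15, and the target genes Id1, Id2 and Id3 by 1.30, 1.36 and 1.51. Bmp7 was the exception, higher by 2.97. Ligands, an antagonist and targets were thus lower side by side.

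Wnt genes gave 6 higher and 11 lower of 28 measured, with a median of -0.29, or -1.11 against the 3 h control. With normexp 4 were higher and 7 lower and the median was 0.19. Wnt2 and Wnt10a, ligands, and Fzd5, a receptor, were higher by 2.83, 2.33 and 2.15. The secreted antagonist Dkk1 was at least 12.6-fold higher, and Sfrp1, another antagonist, was lower by 2.93. The receptors Fzd4 and Fzd7, the feedback inhibitor Nkd1 and 2 of the 4 R-spondins, which amplify Wnt signals, were lower: Rspo2 by at least 21.0-fold, Rspo1 by at least 7.48-fold, Fzd4 by 2.82 and Nkd1 by 2.86 on the log2 scale. Among the called members, Wif1 and Wnt6 were higher by 1.11 and 1.06 against the 48 h control and differed by -0.67 and -0.59 from the 3 h control.

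Several receptors of the IL-6 family, which signal through gp130 and STAT3, were lower. Of 25 members, 6 were 2-fold lower and 1 higher, with a median of -0.61. Osmr had levels of 3.14, 3.24, 3.01, 3.60 and 1.09. Il6ra, Il6st (gp130) and Lifr were lower by 1.99, 1.87 and 1.68, and Cish, a STAT-induced inhibitor, by 2.97. The ligand Il11 was the higher member, with levels of -1.81, -0.88, -1.24, -1.14 and 2.64.

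Cytokine receptors and ligands outside that family included several of the genes that were higher at both times. Il1rl1, the IL-33 receptor, had levels of 2.30, 3.60, 4.20, 2.43 and 7.16 and was 26.6-fold higher, while its ligand gene Il33 was lower by 1.42. Csf2rb2, a beta chain of the IL-3 receptor, differed by 4.87 and Tslp, an epithelial cytokine, by 4.32. Tnfaip3 and Traf1, NF-κB feedback genes, were higher by 2.65 and 2.25. Among 21 measured NF-κB genes, 3 were 2-fold higher and 6 lower, or 3 and 2 with normexp. The shares of all measured genes were 9.91% and 10.1% without that correction. Tlr4, the lipopolysaccharide receptor, was lower by 3.56.

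Interferon-induced genes had a median of 0.04 with 5 of 39 measured genes 2-fold higher and 5 lower. These counts are near the shares of all measured genes, 9.91% higher and 10.1% lower. Ifit3, which restrains viral translation, nevertheless had the lowest difference of all measured genes, with levels of 1.96, 0.90, 0.33, 2.44 and -4.77, or 148-fold lower. Its near-identical copy Ifit3b was at least 79.6-fold lower, and their probes may share targets. Ifit1 and Ifi44 were at least 3.09-fold and 4.07-fold lower, while Rsad2 and Oasl1, also interferon-induced, were higher by 1.81 and 1.82. The list therefore did not move as 1 block.

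Genes of fat cells and their regulators were mostly lower. Adipocytes form under the transcription factors PPARγ and C/EBPα, store triglyceride in droplets coated by perilipins and release it by lipolysis. Of 16 measured members, 11 were 2-fold lower and 2 higher, and the median was -1.66, or -1.19 against the 3 h control. Angptl4, a lipase inhibitor induced by PPARs, had levels of 1.99, 1.40, 0.56, 3.16 and -3.57, a 106-fold lower signal. Plin4, a perilipin, had levels of 4.50, 4.10, 4.05, 5.13 and 0.56. On both genes the 48 h high-dose array was the lowest by a wide margin and the 48 h control the highest.

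Zfp423, which commits preadipocytes, had levels of 2.19, 2.46, 2.25, 2.49 and -1.29. Cebpa was lower by 3.76, and by 2.17 against the 3 h control. Lpl, lipoprotein lipase, differed by -2.67 and -1.06, and Klf15 by -2.15 and -0.21, in the same 2 comparisons. Fabp4, the fatty acid carrier, was at least 12.7-fold lower. The lipolysis genes Pnpla2 and Lipe were lower by 1.69 and 1.63. Beside Ucp1, the preadipocyte gene Dlk1 was higher, by 2.52 against the 48 h and 0.94 against the 3 h control, and Cd36 had a bound of 5.16-fold higher.

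Txnip and other genes that FOXO factors or growth arrest switch on were also lower. FOXO factors leave the nucleus when insulin and growth factor signals are strong. Of 25 measured, 15 were 2-fold lower and 1 higher, with a median of -1.37, or -0.86 against the 3 h control. Txnip, which limits glucose uptake, had levels of 2.33, 1.77, 0.85, 2.12 and -2.50. Its second probe gave -2.76 against -4.62 for the first. Ddit4l, an inhibitor of mTOR signalling, had levels of 1.34, 0.89, 0.04, 0.87 and -2.62. Both were ordered by dose at 3 h and lower again at 48 h.

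Bcl6, a repressor, was lower by 2.62, Pik3ip1, a PI3 kinase inhibitor, by 2.38, Cited2, a transcriptional co-regulator, by 2.13, and the sestrin Sesn1 by 1.54. The exception was Irs2. The cell death gene Bmf, a BH3-only member of the BCL2 family, was lower by 4.43.

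The prostaglandin pathway had 7 of 12 measured genes 2-fold lower and none of the 12 higher, with a median of -1.55. The median was -0.41 against the 3 h control, where 3 of the 7 were still lower. With normexp the median was -0.88 and 5 of the 12 were lower. Pla2g4a, which frees arachidonic acid, and the PGE2 receptor Ptger2 differed by -2.54 and -1.90, and by -2.40 and -2.28 against the 3 h control. Ptger3, another PGE2 receptor, was at least 30.7-fold lower with levels of -0.58, -1.26, -0.79, -0.34 and -5.33. Ptgir, the prostacyclin receptor, differed by -2.04 from the 48 h control and by -0.06 from the 3 h control, and Pla2g2e, a secreted phospholipase, by -3.12 and -0.58. Alox5, on the leukotriene branch, was above background on the 48 h high-dose array only, with a bound of 4.47-fold.

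Glutathione S-transferase genes were lower than on the 48 h control, where many of them stood high. These enzymes join glutathione to reactive compounds and are induced through NRF2. Of 39 measured genes of the list, 13 were 2-fold lower and 2 higher, with a median of -0.37. Gsta1 had levels of -3.63, -3.50, -3.82, 1.49 and -2.85 and Gsta2 of -3.13, -3.17, -3.73, 1.24 and -3.50. Both were high on the 48 h control array alone. Against the 3 h control, the 2 genes differed by 0.78 and -0.37 and the list's median was 0.51, and only 3 of the 13 lower genes were 2-fold lower.

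Between the controls the list's median was 0.66, with 15 of 39 genes 2-fold higher at 48 h, against 2.5% of all genes. Gsta3, Gsta4 and Gstm1 showed the same order of the 2 controls, with 48 h control levels of 1.72, 1.90 and 4.38 and 3 h control levels of -1.98, -2.37 and 1.76. The alpha-class genes are close copies, and probes may share targets. The genes lower against both controls were Gstt1, with -3.22 and -2.83, Mgst1, with -3.35 and -1.58, and Mgst3, with -1.55 and -1.94.

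**Figure D3:**
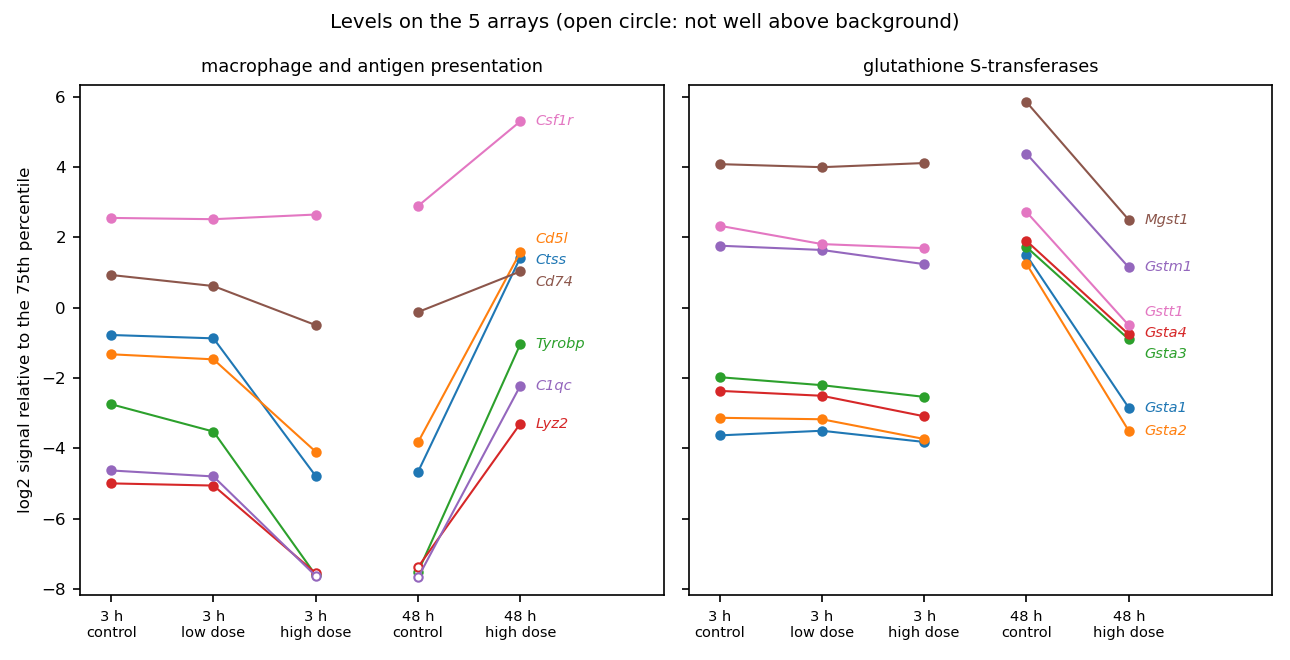
Levels of 7 macrophage and antigen presentation genes (left) and 7 glutathione S-transferase genes (right) on each of the 5 arrays (x axis), as log2 signal relative to the 75th percentile (y axis), with open circles for arrays where the gene was not well above background. Each point is 1 array and lines join arrays of the same time only to guide the eye. Tyrobp and Lyz2 were above background on the 48 h high-dose array and on the control and low-dose arrays of 3 h, and Gsta1 and Gsta2 stood high on the 48 h control only.

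Macrophage genes were higher on the 48 h high-dose array, and they varied between arrays at 3 h too. Of 13 measured genes for macrophages and antigen presentation, 10 were 2-fold higher and none of the 13 lower, with a median of 1.42, and 6 more had bounds of at least 2-fold. Ctss, cathepsin S, had levels of -0.78, -0.87, -4.79, -4.67 and 1.43, and Cd5l, a secreted macrophage protein, -1.33, -1.47, -4.10, -3.82 and 1.58. Tyrobp, a signalling adaptor of myeloid cells, had levels of -2.75, -3.52, -7.61, -7.51 and -1.03, the -7.61 and -7.51 not being above background. The 3 genes were therefore intermediate on the control and low-dose arrays at 3 h, lowest on the high-dose array at 3 h and the control array at 48 h, and highest on the 48 h high-dose array, an order that follows neither dose nor time.

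Of 9 defining macrophage markers on the array, 8 were above background on the 48 h high-dose array and 4 on the 48 h control, and at 3 h 7 on the control, 8 on the low-dose and 4 on the high-dose array. Their summed linear signal, relative to the 75th percentile, was 42.3 on the 48 h high-dose array and between 6.35 and 8.02 on the others. Csf1r, the receptor for macrophage colony-stimulating factor, made up 39.4 of the 42.3, and its levels of 2.55, 2.52, 2.65, 2.89 and 5.30 did not follow Ctss and Tyrobp over the 3 h arrays. Without it the sum was 2.93 against 0.601 on the 48 h control. Ptprc, the pan-leukocyte gene, was not above background on the 48 h high-dose array. Chemokine ligand genes as a list were on both sides. Of 14 measured, 2 were 2-fold higher and 1 lower, with a median of -0.01, beside 9.91% and 10.1% of all measured genes. Bounds of at least 2-fold were found for 3 on the higher and 2 on the lower side. The chemokine genes Ccl6 and Ccl8 had bounds of 37.1-fold and 7.15-fold higher, with 3 h differences of -2.65 and -1.36 in the direction of Tyrobp. The part of macrophages in the other differences was not tested.

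The label of the cells as tumour cells of mesenchymal origin could be checked against markers. All 8 fibroblast markers were above background on all 5 arrays, and their summed signal was 8.63 on the 48 h control and 1.35 on the 48 h high-dose array. Postn, itself a marker of the comparison, made up 3.02 of the 8.63. At 3 h the sums were 6.02 on the control, 6.07 on the low-dose and 4.07 on the high-dose array, so the 48 h control was the highest. Of 8 melanocyte markers, 4 or 5 were above background on each array, and Tyrp1, Dct and Slc45a2 were not above background on any. Their summed signal was 6.99 on the 48 h control and 8.45 on the 48 h high-dose array, of which Mitf, a transcription factor that other cell types express too, made up 6.24 and 7.83. Of 6 endothelial markers, 3 were above background on the 48 h control and 2 on the 48 h high-dose array, with summed signals of 6.37 and 10.1. Kdr, the VEGF receptor gene, made up 6.19 and 9.99 of these, and Cdh5, Emcn and Esam were not above background on any array. Of 7 skeletal muscle markers, Myod1, Myog, Myf5, Des, Ckm and Myh3 were not above background on any array. Epcam, Krt8 and Cdh1 of the 6 epithelial markers were not above background on the 2 arrays at 48 h.

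HOX and neural crest genes keep positional and lineage identity, and among both more were 2-fold lower than higher. The shares of all measured genes were 9.91% higher and 10.1% lower. Of 21 measured HOX genes, 9 were 2-fold lower and 1 higher, with a median of -0.63, which was 0.033 over 36 genes without the filter on dim probes. Hoxb8 had levels of -0.57, -0.57, -0.25, 0.29 and -2.84, and Hoxc6 was lower by 1.81. Hoxd13, the most posterior gene of its cluster, was the higher one, by 2.18. Hoxb7 differed by -1.15 from the 48 h control and by 0.04 from the 3 h control.

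Of 28 neural crest factors, 8 were 2-fold lower and none of the 28 higher, at a median of -0.27, or 0.035 with normexp. Prrx2, a homeobox factor of mesenchyme, had levels of 4.62, 4.63, 4.67, 4.49 and 0.87, a 12.3-fold lower signal. Snai2 and Twist1, factors of epithelial-mesenchymal transition, were lower by 2.54 and 2.04. All 8 were also lower by 2-fold against the 3 h control. Of 29 measured axon guidance genes, 5 were 2-fold higher and 9 lower, beside 9.91% and 10.1% of all measured genes. The list's median was -0.15. The lower ones included the ligands Sema3c, by 4.07, and Slit2, by 3.05, and the receptors Robo1 and Plxnd1, by 2.90 and 3.11.

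**Figure D4:**
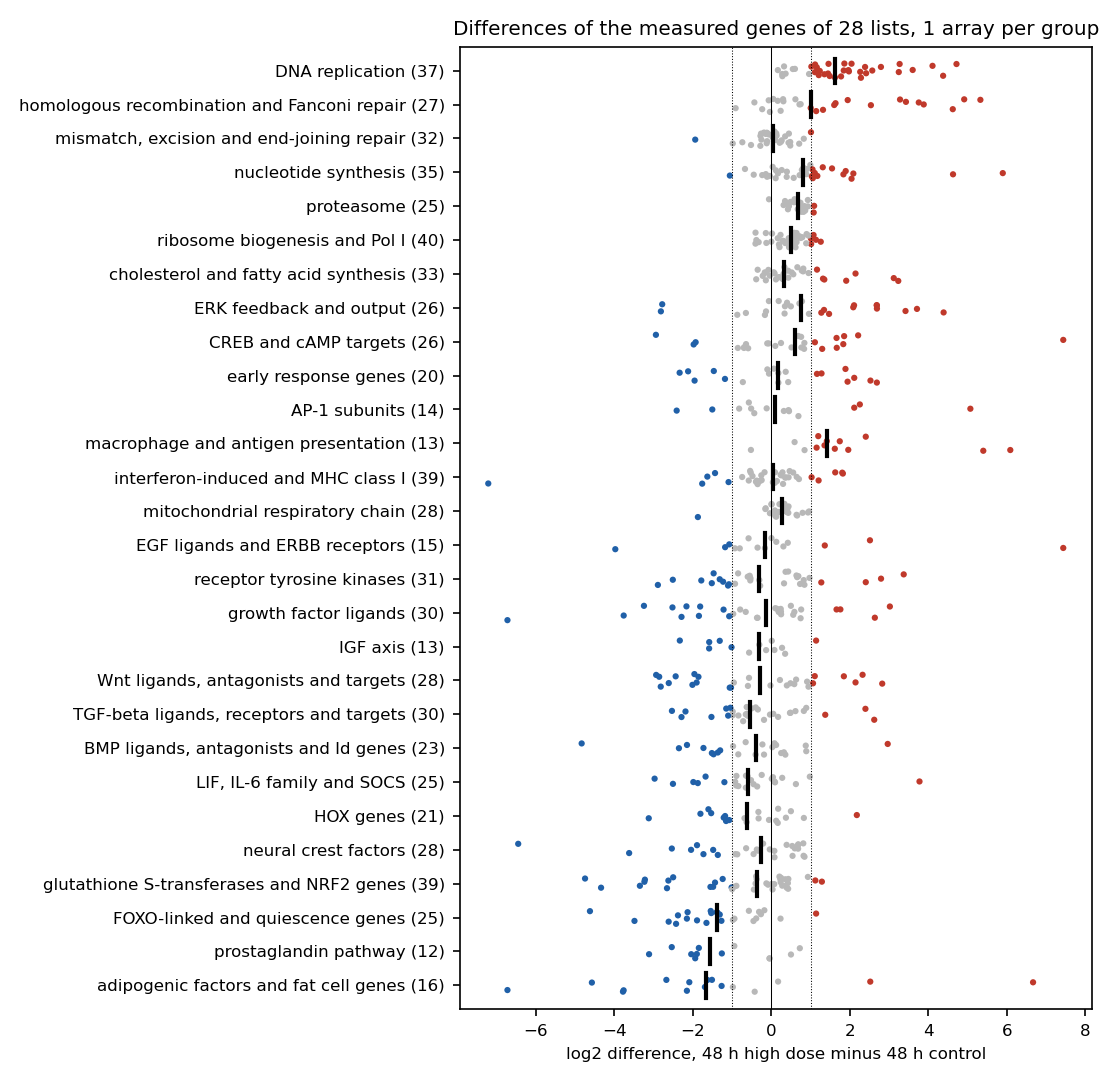
Difference between 48 h high dose and 48 h control (x axis, log2) for each measured gene of 28 lists (y axis, number of measured genes in brackets), with 1 array per group. Red and blue points are 2-fold higher and lower, grey points neither, and black bars are medians. The adipogenic, prostaglandin and FOXO-linked lists have medians below -1, and DNA replication and macrophage genes have medians above 1.

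DNA replication genes, whose products load and fire origins, had 29 of 37 measured members 2-fold higher, none of the 37 lower and a median of 1.62. Mcm5, a helicase subunit, had levels of -1.76, -1.68, -1.46, -2.06 and 2.66, and Cdt1, a loading factor, of -0.63, 0.25, 0.13, -0.37 and 3.23. The other 4 arrays lay together for both genes. Homologous recombination and Fanconi genes, which repair broken or stalled forks, had 14 of 27 higher, led by Exo1 at 5.33 and Rad51ap1 at 4.92. Mismatch, excision and end-joining repair genes had 1 of 32 higher and 1 lower at a median of 0.03, so that the repair genes differed by class.

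Nucleotide synthesis had 13 of 35 higher at a median of 0.82. Tk1, thymidine kinase, differed by 4.63 and Mthfd2, a mitochondrial folate enzyme, by 2.09. Among chromatin genes, 9 of 34 were higher and 3 lower. Uhrf1, which guides maintenance methylation, and the histone chaperones Asf1b and Chaf1b were higher by 4.96, 4.68 and 3.78. The maintenance enzyme Dnmt1 was higher by 1.31 while the de novo enzyme Dnmt3a and the second chaperone Asf1a were lower by 1.37 and 1.61. Of 11 measured H2A genes, 9 were 2-fold higher, against 1 of 7 H4 genes. The counts were 3 of 6 for H3, 3 of 8 for H1 and 2 of 9 for H2B. In H1 and in H2B 1 gene was lower. Of all measured genes, 9.91% were 2-fold higher. Near-identical copies within these families may share probes.

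E2F sites are the element through which S-phase genes are held off and released. The letters TTCCCGC or the variants TTGGCGC and also TTCGCGC, on either strand and with overlaps among them, were found in 2652 of 32851 promoters (8.07%) and in 1724 of 10957 measured genes (15.7%). They were in 14 of the 22 higher replication genes with a promoter. Parts of 3 of these promoters are shown because they carry the letters, in capitals, before the start, at chr8:75109295-75109401 on the plus strand for Mcm5, chr1:128359758-128359864 on the minus strand for Mcm6 and chr11:98907963-98908069 on the plus strand for Cdc6.
Mcm5: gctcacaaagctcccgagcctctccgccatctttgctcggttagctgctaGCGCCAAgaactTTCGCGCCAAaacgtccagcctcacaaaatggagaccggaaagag
Mcm6: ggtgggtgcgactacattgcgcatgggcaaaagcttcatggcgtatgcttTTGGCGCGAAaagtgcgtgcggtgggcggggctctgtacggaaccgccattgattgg
Cdc6: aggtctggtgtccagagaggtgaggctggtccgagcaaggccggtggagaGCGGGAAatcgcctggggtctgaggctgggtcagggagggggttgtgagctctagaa

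Mcm6 differed by 1.45 and Cdc6, which licenses origins, by 3.25, the second probe of Cdc6 giving 4.44. The Mcm5 promoter also holds the cAMP response element TGACGTCA, nearer to the start than the part shown.

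General growth machinery was shifted by less than 2-fold. Proteasome genes had a median of 0.69 with 24 of 25 above 0, and 2 of 25 were 2-fold higher. Aminoacyl-tRNA synthetases had a median of 0.53 with 20 of 20 above 0, and ribosome biogenesis genes 0.51 with 34 of 40 above 0. Fbl, the fibrillarin of the nucleolus, was the highest of the latter at 1.26. Respiratory chain genes had a median of 0.26. Such small shifts depend on the scaling of the arrays, whose overall median was 0.05.

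Cholesterol and fatty acid synthesis had 7 of 33 genes 2-fold higher and none of the 33 lower. Pmvk, an enzyme of the cholesterol route, was higher by 3.12. Glycolysis and hypoxia genes had 6 of 34 lower and 1 higher. Adm and Aldoc, hypoxia-induced, were lower by 2.53 and 2.10, and the lactate exporter Slc16a3 was higher by 2.51.

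In the MYC network, Mycn, a growth-promoting factor, was higher by 3.66 and Mxd1, an antagonist, by 3.76, and Mxd3 was at least 38.0-fold higher, while Myc differed by -0.87. The serine synthesis gene Psat1, an ATF4 target, was higher by 2.53 and Ddit3, the stress factor CHOP, lower by 1.24. The clock output factor Hlf was lower by 2.59. In all, 4 of 22 clock genes were 2-fold lower against 1 higher, or 2 against 0 with normexp. Among all measured genes, 10.1% were lower and 9.91% higher without that correction.

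At 3 h, the high-dose comparison had 261 of 14004 genes (1.86%) 2-fold higher and 202 (1.44%) lower, and it shares no array with the 48 h comparison. Of the 220 genes higher at 3 h and measured at both times, 99 (45.0%) were higher at 48 h and 28 (12.7%) were lower. The 99 genes are 7.67% of the 1290 higher at 48 h. Of the 160 lower at 3 h, 42 (26.2%) were lower at 48 h and 34 (21.2%) were higher. Over all 13480 genes measured at both times, 9.57% were higher and 10.3% lower at 48 h.

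The genes higher at both times included Areg, Ucp1, Wdr92, Fos, Csf2rb2, Il1rl1, Dusp2, Krt23, Tslp, Nms, Ghsr, Plaur, Mycn, Etv4 and Epha2. Krt23, a keratin, differed by 4.36 at 48 h, and Ghsr, the ghrelin receptor, by 3.87 at 48 h and 1.77 at 3 h. Those lower at both included Ifit3, Angptl4, Txnip, Ogn, Ccn5, Ddit4l, Rgs3 and Sfrp1. Ogn, a small matrix proteoglycan, differed by -4.57 and -1.34, and Ccn5, a matricellular gene, by -3.55 and -1.27.

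**Figure D5:**
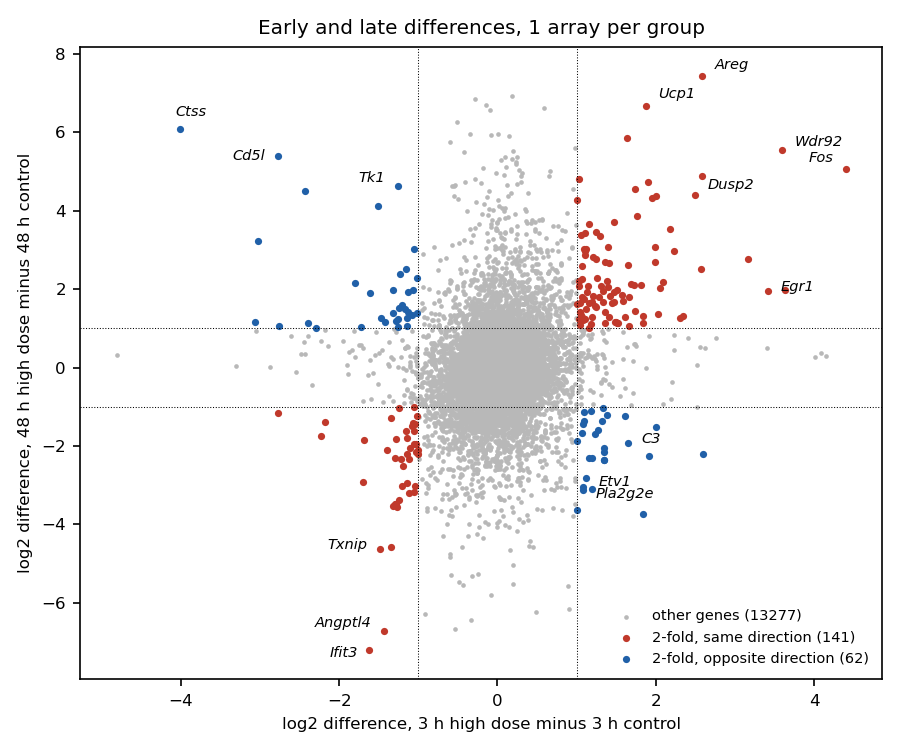
Difference between high dose and control at 3 h (x axis) and at 48 h (y axis), both log2, for the 13480 genes measured at both times, with 1 array per group. Red points are 2-fold changed the same way at both times (141 genes), blue points the opposite way (62 genes), and dotted lines mark 2-fold. Areg, Fos and Wdr92 are in the upper right, Ifit3 and Angptl4 in the lower left, and Ctss in the upper left.

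The remaining genes with large lower differences were of varied function. Serpinb1a, an inhibitor of neutrophil proteases, had levels of 1.60, 1.03, 1.06, 3.01 and -3.66 and was 102-fold lower. Ggt5, a gamma-glutamyl transferase, differed by -6.29, the exocytosis GTPase Rab3b by -6.23, and Inmt, a methyltransferase, by -6.15. Ano1, a calcium-activated chloride channel, had levels of 3.39, 3.57, 3.07, 3.69 and -1.62. Cavin2, of caveolae, was lower by 5.56 and the water channel Aqp8 by 5.48. Vill, a villin-like gene, Lgals2, a galectin, Lrrc4 and Tmeff2 differed by -5.81, -5.51, -5.30 and -5.26. Slurp1 differed by -5.04 from the 48 h control and by -2.85 from the 3 h control, and Cbr2, a carbonyl reductase, by -4.65 and -4.69.

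Among genes with a bound only, Edil3, an integrin ligand, was at least 85.0-fold lower, Gucy1a1, a subunit of the nitric oxide receptor, at least 52.6-fold, and Aspn, a TGF-β-binding proteoglycan, at least 35.9-fold. The integrin subunits Itga8 and Itga11 were at least 17.8-fold and 10.2-fold lower. Matrix gene Postn, periostin, had levels of -1.18, -1.16, -0.29, 1.60 and -3.99, so that its difference of -5.58 was -2.80 against the 3 h control. Of the cell cycle markers, Mki67 had levels of -2.94, -2.90, -3.22, -3.79 and 3.06, and its second probe gave 7.47 against 6.86 on the log2 scale. Areg, Mki67 and Postn, the markers of the comparison, differed in the same direction against either control. Both differences share the 48 h high-dose array, so this is no separate check. Of the 623 called genes with another measured probe, 72 had a probe of opposite sign.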

How the data were processed

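RNA of mouse sarcoma cells was read on 5 one-colour Agilent arrays on 1 slide, 1 per group. Per the file headers, the deposited values are intensities on a linear scale, which Agilent Feature Extraction 10.7.3.1, the version in the submitters' processing notes, had background-subtracted and detrended within each array. Signals were taken to log2, and each array's 75th percentile over spots outside the controls was subtracted. Spots marked as outliers were left out and spots of a probe averaged. Probes counted as above background when the scanner software marked a share of 0.5 or more of their spots so. Accessions were named through RefSeq genes of GRCm38.p6, used for names and promoters only because the headers name an older build. Of several probes, a gene was represented by the one brightest on average over all 5 arrays.

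Genes above background on both 48 h arrays were called at a log2 difference of 1 or more. Otherwise the bright level was set against the dim array's lowest level above background or the dim probe's own level, whichever was higher, and given as "at least N-fold". With 1 array per group no test was made. The rule was run on simulated data, whose noise was about the scanner's error only and held no spread between cultures or lines. The planted differences all lay beyond the threshold and no bounds were simulated. The run therefore checks the code and not the calls reported here. The 65 gene lists, the comparison and its markers were chosen with earlier results of these data known. Named genes were the 20 largest differences and 10 largest bounds on each side, up to 6 called members per list and direction and members needed to say what a list holds. Some genes that these rules name are not reported here. Genes said to be higher or lower at both times were picked after their values were seen, as were the histone and Cyp3a families. The alternatives were other scalings, normexp with offset 50 on the median signals (mean signals were not used here), no filter on dim probes, the mean of probes, the 3 h control and the deposited value table, whose intensities matched the authors' processed signals within 0.01 on the log2 scale for nearly all probes. Python 3.11.15, numpy 2.4.6, pandas 2.3.3, R 4.3.3 and limma 3.58.1 were used.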

Additional observations from a re-analysis of the deposited data

Results flagged for a closer look

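Some genes named above were 2-fold changed in opposite directions by high dose at 48 h and at 3 h. The difference between the times was not tested, since each rests on 1 array per group. Ctss differed by 6.09 at 48 h and -4.01 at 3 h, and Cd5l by 5.40 and -2.77. Tk1 differed by 4.63 and -1.26, and Fgf1 by 3.02 and -1.06. Going the other way, Etv1 differed by -2.81 at 48 h and 1.12 at 3 h, and Pla2g2e by -3.12 and 1.09.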

How the results depend on the processing

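Scaling to the median, quantile normalization, normexp, the mean of probes, the 3 h control and the deposited value table each gave between 1070 and 1372 higher and between 967 and 1463 lower genes, the lowest with normexp. Of the 1362 higher and 1386 lower genes, 1067 and 933 were still called with normexp, whose offset pulls dim signals together, and none of the 2748 turned under any alternative but the 3 h control, where 7 turned. Without the filter on dim probes the counts were 2201 higher and 2269 lower of 20016 genes tested, and the median of all genes was 0.19. Among genes named here, 6 changed sign with the 3 h control: Gsta1 to 0.78, Gsta3 to 1.08, Gsta4 to 1.61, Hoxb7 to 0.042, Wif1 to -0.67 and Wnt6 to -0.59. No list with a median of 1 or more in size changed sign. Smaller medians did in more cases than the examples given here. With normexp those of the EGF and ERBB list, growth factors, Wnt genes, the MYC network and neural crest factors turned to 0.051, 0.065, 0.19, 0.13 and 0.035. With quantile normalization those of the interferon list and the respiratory chain turned to -0.28 and -0.12, and 0 of 25 proteasome genes were 2-fold higher. Without the filter the HOX median turned to 0.033, and those of growth factors, the EGF and ERBB list and the interferon list to 0.10, 0.066 and -0.066. Against the 3 h control the interferon median turned to -0.24 and that of the EGF and ERBB list to 0.072. No paired analysis was possible because each group has 1 array, and for the same reason no replicate could be left out. Genes dim on 1 array have bounds only, and signal over background limits small differences of dim genes.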

Other observations

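Ddx3y, Eif2s3y and Xist, genes of the sex chromosomes, were looked at after their values were seen. Ddx3y, a Y-linked helicase, lay between 1.22 and 1.63 on the 5 arrays, and Eif2s3y, a Y-linked translation factor, between 2.25 and 2.72. Xist, the RNA that silences an X chromosome, was above background on 0 of 5 arrays.

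Of 16 measured imprinted genes, 3 were 2-fold higher than on the 48 h control and 1 was lower, with a median of 0.13. Among all measured genes, 9.91% were higher and 10.1% lower. The higher imprinted genes included genes of the Dlk1 region. Dlk1 and the non-coding RNA gene Meg3 differed by 2.52 and 1.96 from the 48 h control and by 0.94 and 0.76 from the 3 h control. The growth inhibitor Cdkn1c, also imprinted, was lower by 1.25. Among nuclear architecture genes, Hmga2, a fetal chromatin protein, and Lmnb1, lamin B1, were higher by 2.21 and 2.10, and H1f0, the histone H1 of resting cells, was lower by 1.15.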
